A study of Homo sapiens with 12 samples.

Results

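The 36 genes described here encode the SR proteins, their TRA2 relatives and the heterogeneous nuclear ribonucleoproteins (hnRNPs) that together set which exons are kept in an mRNA. They were taken as a list of gene symbols, 14 SR and TRA2 genes (SRSF1 to SRSF12, TRA2A and TRA2B) and 22 hnRNP genes with PTBP1 and SYNCRIP, out of 35544 genes in the data. The 36 genes had 451 transcripts in the files, of which GENCODE 29 classed 230 as protein_coding, 109 as retained_intron, 59 as nonsense_mediated_decay and 53 as processed_transcript. For every gene the level and the share of its counts on each class were computed in each library.

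The cells were WM-266-4, a human melanoma cell line, and all carried a stable lentiviral shRNA against TYRO3, a receptor tyrosine kinase, so that no group had unmodified TYRO3 expression. They were transfected with a pEZY-myc-his plasmid for GFP, for wild-type TYRO3 (WT), for TYRO3 with I449A (ΔGS, resistant to gamma-secretase) or for TYRO3 with P408A, L409P and G419P (ΔADAM, resistant to ADAM proteases), and were starved of serum before harvest. Each of 3 experiments held 1 library of each group, which gives 12 libraries of polyadenylated RNA. No sorting of transfected cells is described in the sources used here, and a lower level in fewer cells cannot be told apart from a lower level per cell.

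The estimated counts per library ran from 4008293 in the GFP library of experiment 1 to 38184838 in the GFP library of experiment 2, with a median of 23302002. TYRO3 lay between 47.4 and 56.7 CPM (counts scaled to the size of the library) in the GFP libraries and between 1181 and 3691 CPM in the libraries of the 3 TYRO3 groups, with the WT, ΔGS and ΔADAM libraries of experiment 1 highest. The melanocyte genes PMEL (750.4 to 1316 CPM) and SOX10 (346 to 602 CPM) were present in every library, and the keratinocyte genes KRT5 and KRT1 were at 0 in all 12. CD68, used as a macrophage marker, was also present at 30.7 to 36.9 CPM, whereas CD163 did not exceed 1.02 CPM.

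SR proteins bind exons through RNA recognition domains and recruit the spliceosome through domains rich in arginine and serine. Many hnRNPs bind introns or exons and keep splice sites from being used, so that the balance of both families decides on alternative exons. Many of these genes also control their own level. When the protein is abundant, its own pre-mRNA is spliced to carry an early stop, for example in an added exon, or keeps an intron. The transcript with the early stop is degraded by nonsense-mediated decay (NMD), and transcripts with a kept intron often stay in the nucleus.

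Such exons could be read from the annotation. In all 59 NMD transcripts of the 36 genes the annotated stop codon was located, and in 17 of them, from 9 genes, it lay in an exon that overlaps no exon of a protein_coding transcript of the same gene. The coding part of the exon with the stop is shown for 6 NMD transcripts, as examples of how such transcripts end. The sequences are from GENCODE 29 (GRCh38), 5′ to 3′ on the strand of the gene, with the stop codon in capitals.
SRSF6-202, exon 3 of 7, chr20:43459153-43459304, plus strand: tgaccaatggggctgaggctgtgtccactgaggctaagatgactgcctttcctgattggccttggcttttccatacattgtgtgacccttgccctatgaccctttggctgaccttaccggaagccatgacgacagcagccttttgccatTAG
TRA2B-206, exon 2 of 10, chr3:185931772-185931852, minus strand: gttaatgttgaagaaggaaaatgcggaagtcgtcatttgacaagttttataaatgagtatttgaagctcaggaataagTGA
SRSF3-203, exon 4 of 7, chr6:36599821-36599854, plus strand: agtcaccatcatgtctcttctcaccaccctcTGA
SRSF7-204, exon 4 of 9, chr2:38749319-38749346, minus strand: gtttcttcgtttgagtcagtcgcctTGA
HNRNPL-202, exon 7 of 14, chr19:38841624-38841682, minus strand: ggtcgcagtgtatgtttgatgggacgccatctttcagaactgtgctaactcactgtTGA
HNRNPLL-201, exon 6 of 13, chr2:38577956-38578002, minus strand: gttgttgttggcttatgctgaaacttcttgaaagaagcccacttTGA
The exon of TRA2B-206 overlaps an exon of a protein_coding transcript with other ends, and the other 5 exons overlap none. The stop lay 534 bases before the last exon junction in SRSF6-202, 1015 in TRA2B-206, 548 in SRSF3-203, 697 in SRSF7-204, 842 in HNRNPL-202 and 807 in HNRNPLL-201, distances at which a stop is read as premature.

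The members were abundant. Of the 36 genes, 35 had a mean level above 23.4 CPM, the median of all genes tested, and the exception was SRSF12 with 1.47 CPM. In TPM, a scale that also corrects for transcript length, HNRNPA2B1 had a level of 1276 ± 142 (SD, n = 12 libraries) and HNRNPA1 one of 1252 ± 87.6, and the 2 ranges overlapped. HNRNPC followed without overlap at 833 ± 77.5, HNRNPK with 649.6 ± 44.0, HNRNPH1 with 606 ± 159 and SRSF3, the highest of the SR genes, with 553 ± 42.9 TPM. From HNRNPC to SRSF3 the ranges of neighbours overlapped, as HNRNPH1 alone ran from 412 to 853 TPM. SRSF12 was lowest at 0.806 ± 0.222 TPM, below HNRNPA0 at 28.7 ± 2.34 TPM without overlap.

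The first question was whether the members differed between each TYRO3 group and GFP. A small number did, all of them lower with TYRO3: 1 member (HNRNPA3) in WT, 2 (HNRNPA3 and PTBP1) in ΔGS and 6 (HNRNPA3, TRA2A, HNRNPA2B1, HNRNPDL, HNRNPL and PTBP1) in ΔADAM. No member was called higher in any of the 3 comparisons. The falls were small, with the largest at 1.46-fold, so that 0 members passed a threshold of 1.5-fold. Genes were called at an adjusted p of at most 0.05 in edgeR's quasi-likelihood test with the experiment as a block.

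Over all 15400 genes tested, 1.4% were called lower and 2.08% higher in WT, 4.19% lower and 4.36% higher in ΔGS, and 5.14% lower and 4.74% higher in ΔADAM. Calls that also passed 1.5-fold made up 2.29% of all genes in WT, 4.56% in ΔGS and 5.1% in ΔADAM. Set against 36 members, 1 and 2 called lower is near these shares, and the 6 in ΔADAM are above theirs. These shares are not matched for level, as 35 of the 36 members lay above the median level of all genes. The list of members was also chosen with earlier results of these data known. The median log2 fold change of the members was −0.06 in WT, −0.05 in ΔGS and −0.06 in ΔADAM, beside medians of all genes of 0.00, 0.01 and 0.00. The log2 fold change was below 0 for 22, 23 and 26 of the 36 members. The 3 comparisons share the GFP libraries and are given side by side for that reason.

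**Figure D1:**
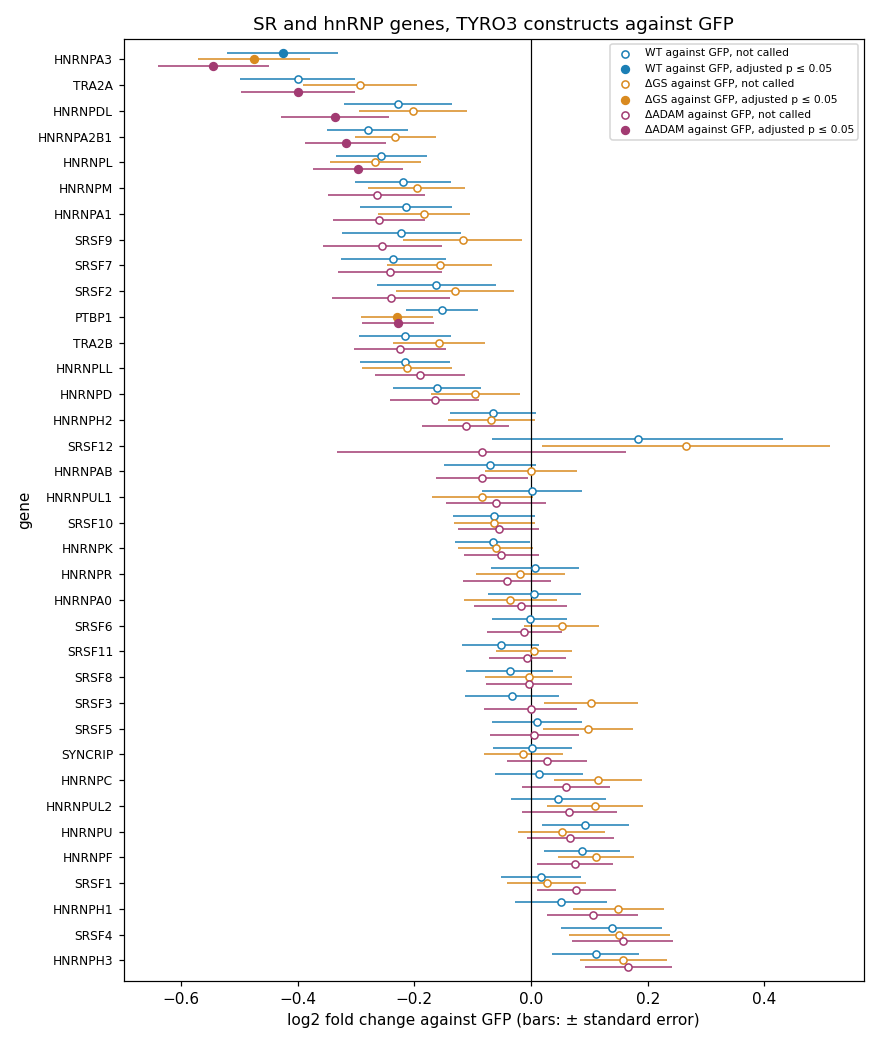
Log2 fold change of each of the 36 genes against GFP (x axis, bars ± approximate standard error) for WT, ΔGS and ΔADAM, ordered by the value in ΔADAM. Filled points passed an adjusted p of 0.05, all of them lie below 0, and none reaches the log2 value of a 1.5-fold change.

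HNRNPA3 (chr2:177212563-177223958, plus strand), a nuclear RNA-binding protein of the A/B group, fell in all 3 comparisons. The GFP libraries of experiments 1, 2 and 3 had 641, 608 and 616 CPM. The WT libraries had 391, 529 and 476 CPM, the ΔGS libraries 429.9, 459.7 and 453 CPM, and the ΔADAM libraries 399, 485 and 399 CPM. Every TYRO3 library was below every GFP library, and the WT libraries spread most. The log2 fold change was −0.43 (SE 0.095, adjusted p = 0.0395) in WT, −0.47 (SE 0.095, adjusted p = 0.0169) in ΔGS and −0.55 (SE 0.095, adjusted p = 0.00919) in ΔADAM. Annotated pseudogenes of HNRNPA3, 16 in all, held counts equal to 0.146% to 0.33% of those of the gene, so that few reads were assigned to its copies.

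HNRNPA2B1 (chr7:26173057-26201529, minus strand), which encodes the A2 and B1 proteins of the same group, fell in ΔADAM. GFP had 1689, 1674 and 1686 CPM in experiments 1 to 3, and ΔADAM 1246, 1478 and 1339 CPM. In WT the values were 1280.4, 1453 and 1433 CPM, and in ΔGS 1343, 1482 and 1481 CPM. No TYRO3 library reached the GFP libraries. The log2 fold change was −0.32 (SE 0.070, adjusted p = 0.021) in ΔADAM, −0.28 (adjusted p = 0.0522) in WT and −0.23 (adjusted p = 0.0629) in ΔGS, of which only the first passed the threshold.

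TRA2A (chr7:23504780-23532041, minus strand), an activator of exon inclusion related to the SR proteins, was the one member of the SR and TRA2 genes to be called. Its level was 78.9, 64.5 and 53.4 CPM in GFP, 48.1, 52.6 and 45.7 CPM in WT, 56.2, 50.6 and 50.8 CPM in ΔGS and 51.0, 50.4 and 45.3 CPM in ΔADAM. The GFP library of experiment 3 lay below the ΔGS library of experiment 1, so that the groups overlapped across experiments, although within each experiment GFP was highest. The log2 fold change was −0.40 in WT (adjusted p = 0.0516), −0.29 in ΔGS (adjusted p = 0.0874) and −0.40 in ΔADAM (SE 0.098, adjusted p = 0.0302).

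HNRNPL (chr19:38836388-38852347, minus strand) binds CA-rich RNA. Its GFP libraries had 167, 159.9 and 158 CPM, the WT libraries 125, 139 and 142 CPM, the ΔGS libraries 127, 129 and 147 CPM and the ΔADAM libraries 126, 137 and 130.4 CPM. The GFP libraries did not overlap with the others. The fall in ΔADAM was −0.30 on the log2 scale (SE 0.078, adjusted p = 0.0384), and the log2 fold changes of −0.26 in WT (adjusted p = 0.0931) and −0.27 in ΔGS (adjusted p = 0.0581) did not pass.

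HNRNPDL (chr4:82422564-82430408, minus strand), a relative of the mRNA decay factor HNRNPD, had 359, 347 and 347 CPM in GFP and 266, 329 and 245 CPM in ΔADAM. WT had 263, 337 and 302 CPM and ΔGS 290.4, 329.5 and 298 CPM. Experiment 2 differed least, with all 3 TYRO3 libraries close to GFP. The log2 fold change was −0.34 in ΔADAM (SE 0.093, adjusted p = 0.0447), −0.23 in WT (adjusted p = 0.188) and −0.20 in ΔGS (adjusted p = 0.194).

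PTBP1 (chr19:797075-812327, plus strand), the polypyrimidine tract-binding repressor of many exons, fell in ΔGS and in ΔADAM. It had 498, 439.8 and 463 CPM in GFP, 452, 401 and 407 CPM in WT, 433, 371 and 392 CPM in ΔGS and 442, 375 and 381 CPM in ΔADAM. The libraries of experiment 1 were highest in every group, and the groups overlapped across experiments but not within them. The log2 fold change was −0.23 in ΔGS (SE 0.062, adjusted p = 0.0435), −0.23 in ΔADAM (SE 0.062, adjusted p = 0.0424) and −0.15 in WT (adjusted p = 0.183).

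**Figure D2:**
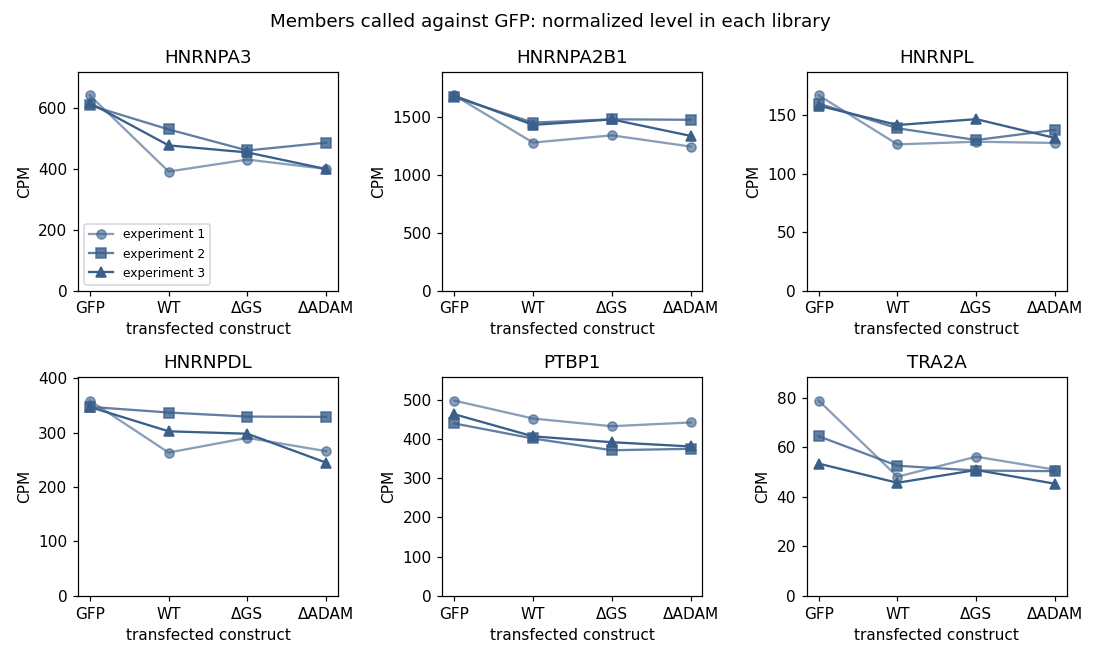
CPM (y axis, from 0) of the 6 called members in each library, by transfected construct (x axis), with 1 line per experiment. In each of the 6 panels the GFP library is the highest of its experiment, and for HNRNPA3, HNRNPA2B1, HNRNPL and HNRNPDL all GFP libraries lie above all others.

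The remaining 30 members were not called for WT, ΔGS or ΔADAM, each against GFP. Of the 14 SR and TRA2 genes, 10 had a log2 fold change below 0 in WT, 7 in ΔGS and 11 in ΔADAM. Of the 22 hnRNP genes the numbers were 12, 16 and 15. The highest log2 fold change of any member was 0.27, for SRSF12 in ΔGS, with a standard error of 0.25. At an unadjusted p under 0.05 there were 11 of the 36 members in WT, 8 in ΔGS and 14 in ΔADAM. Of all genes, 21.1%, 26.2% and 26.9% were so in either direction, and the 8 in ΔGS are below that share. These members were all lower except HNRNPH3 in ΔADAM (log2 fold change 0.17, adjusted p = 0.179). No share of all genes by direction stands beside that.

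The 3 TYRO3 groups were also set together against GFP, a comparison chosen after seeing the data. In it 9 members were called, all lower: HNRNPA3 (−0.48), TRA2A (−0.36), HNRNPA2B1 (−0.28), HNRNPL (−0.27), HNRNPDL (−0.26), HNRNPM (−0.23), HNRNPA1 (−0.22), HNRNPLL (−0.21) and PTBP1 (−0.20 on the log2 scale). Of all genes 8.36% were called lower and 7.01% higher. HNRNPA1, which shapes splicing together with its A/B relatives, has 75 annotated pseudogenes that held counts equal to 0.783% to 2.18% of its own. Without the GFP library of experiment 1 its log2 fold change for the groups together was −0.14 and was not called.

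Within experiments, 10 members were below the GFP library in 9 of 9 pairs of a TYRO3 library and GFP, namely these 9 and SRSF7, beside 13.5% of all genes. HNRNPF and HNRNPH3 were above GFP in 9 of 9 pairs, beside 12.5% of all genes, and neither was called, with log2 fold changes of 0.09 and 0.15 for the groups together. The pairs of an experiment share its GFP library and are not independent.

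The number of calls rested on single libraries. Without the GFP library of experiment 1, which has the lowest depth, 0 members were called in WT, 0 in ΔGS and 1 (HNRNPA3) in ΔADAM, and 1 (HNRNPA3) for the groups together, while the log2 fold change of HNRNPA3 was −0.33, −0.37, −0.44 and −0.38. In WT the single call was also lost without the WT library of experiment 1 or 2, the ΔGS library of experiment 1 or 2 or any 1 of the ΔADAM libraries. In ΔGS the calls went from 2 to 0 without the GFP library of experiment 3 or the ΔGS library of experiment 2, and to 1 without the GFP library of experiment 2, the ΔGS library of experiment 1 or any 1 of the WT or ΔADAM libraries. In ΔADAM the calls went from 6 to 0 without the ΔADAM library of experiment 1 or 3, to 2 without the GFP library of experiment 3, and to 3 without the GFP, WT or ΔADAM library of experiment 2 or the ΔGS library of experiment 1. For the groups together they went from 9 to 4 without the GFP library of experiment 2 or the ΔADAM library of experiment 1, and to 5 without the GFP or ΔADAM library of experiment 3, the WT library of experiment 1 or the ΔGS library of experiment 1 or 2. Leaving out the ΔGS library of experiment 3 raised the calls to 5, 4 and 11.

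The block mattered as well. With a term for experiment 1 alone in place of the 3 experiments, 0, 0 and 1 members were called in WT, ΔGS and ΔADAM and 4 for the groups together, and without any such term 0 members were called in each.

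The second question was whether the cleavage-resistant receptors differed from the wild type. Between WT and the mean of ΔGS and ΔADAM no difference was called by edgeR, neither among the 36 members nor among all genes (0%). At an unadjusted p under 0.05 there were 0 members and 252 genes (1.64% of all). The log2 differences of the members lay between −0.08 and 0.09, with a median standard error of 0.066. Between ΔGS and ΔADAM 0% of all genes and 0 members were called by edgeR, with 0 members and 229 genes (1.49% of all) at an unadjusted p under 0.05. These log2 differences ran from −0.05 to 0.35, the highest being that of SRSF12, the scarce member, with a standard error of 0.23. DESeq2 also called 0 members in both comparisons. For HNRNPA3 the log2 difference was 0.08 (SE 0.082) between WT and the 2 variants and 0.07 (SE 0.095) between ΔGS and ΔADAM, neither of which could be told from 0 with 3 libraries a group.

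The third question concerned the transcripts of the members, tested for the 3 TYRO3 groups together against GFP. After transcripts with few counts were removed, a step that can depend on the group where a transcript is high, 341 of the 451 were tested, and 27 were at 0 in all libraries. The test of edgeR called 0 of the 341, beside 0.00978% (7) of the 71576 transcripts tested, and 45 of the 341 (13.2%) had an unadjusted p under 0.05, beside 8.79% of all transcripts. DESeq2 called 16 of them, beside 4.23% of all transcripts. With at least 10 counts in every library edgeR called 2 (HNRNPA3-202 and HNRNPA3-204) of 194, beside 1.85% of all.

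Of the 6 transcripts with the smallest p, 3 belong to HNRNPA2B1 and HNRNPA3, genes called lower. HNRNPA2B1-202, protein_coding, had 1033, 1296 and 1385 CPM in GFP and 786 to 1136 CPM in WT, 827 to 1244 CPM in ΔGS and 803 to 1120 CPM in ΔADAM. Its log2 fold change was −0.28 (SE 0.050, adjusted p = 0.144). HNRNPA3-204, protein_coding, had 209, 159 and 148 CPM in GFP and between 108 and 137 CPM in all TYRO3 libraries, a log2 fold change of −0.53 (SE 0.10, adjusted p = 0.18), with no overlap. HNRNPA3-202, also protein_coding, had 149.8, 155.5 and 155 CPM in GFP and 119 to 136 CPM with TYRO3, a log2 fold change of −0.29 (SE 0.061, adjusted p = 0.197).

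The other 3 belong to HNRNPU, a nuclear matrix protein that binds pre-mRNA, and to HNRNPC, which binds uridine tracts in introns. HNRNPU-202, retained_intron, had 13.2, 11.9 and 30.4 CPM in GFP, 29.2, 25.0 and 27.6 CPM in WT, 48.7, 43.5 and 36.3 CPM in ΔGS and 38.5, 35.1 and 48.9 CPM in ΔADAM. GFP and WT overlapped through the GFP library of experiment 3, and the log2 fold change was 1.04 (SE 0.26, adjusted p = 0.294). HNRNPC-230, protein_coding, had 98.9, 82.5 and 124 CPM in GFP and 97.2 to 155 CPM with TYRO3 (log2 fold change 0.36, SE 0.095, adjusted p = 0.318). HNRNPU-226, protein_coding, had 25.6, 32.7 and 49.3 CPM in GFP and 14.7 to 34.7 CPM with TYRO3 (log2 fold change −0.58, SE 0.16, adjusted p = 0.335). HNRNPU and HNRNPC were not called as genes, and the split of their reads among isoforms is an estimate of kallisto whose uncertainty the test does not include.

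How the counts of each gene divide among transcript classes differed widely between members. On average over the 12 libraries SRSF6 had 47.4% of its counts on its NMD transcript, TRA2B 37.1%, SRSF7 34.7% and HNRNPU 28.2%. The largest retained_intron shares were those of HNRNPH1 (47.6%), TRA2B (39.6%), SRSF3 (39.2%), SRSF5 (24.3%) and TRA2A (19.6%). TRA2B had only 23.3% of its counts on protein_coding transcripts, whereas HNRNPA3, HNRNPA0, HNRNPH2 and SYNCRIP had 100%. Summed over the 36 genes, 78.6% to 86.8% of the counts of a library were on protein_coding, 4.997% to 10.4% on retained_intron and 7.06% to 9.004% on NMD transcripts. The same sums over all genes were 87.3% to 90.3%, 3.14% to 4.89% and 3.36% to 4.01%. No interval for counting error was attached to these shares, since the split among transcripts is an estimate, and the spread between libraries stands for their error.

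Between the constructs no difference of these shares passed the test for any member. The summed retained_intron share of the members was 7.06% ± 2.11 (SD, n = 3) in GFP, 7.39% ± 2.20 in WT, 7.76% ± 2.69 in ΔGS and 7.59% ± 1.49 in ΔADAM. The summed NMD share was 8.44% ± 0.152 in GFP, 8.75% ± 0.223 in WT, 8.21% ± 1.01 in ΔGS and 8.30% ± 0.52 in ΔADAM. The ratio of NMD to protein_coding counts could be tested for 23 members among 3176 genes, and limma called 0 of the 23 for the TYRO3 groups against GFP, beside 0.0315% (1) of all genes. For the retained_intron ratio 0 of 24 members were called by limma, beside 0.0222% of 4512 genes, which is TYRO3 alone. At an unadjusted p under 0.05 there were 2 members for each ratio, beside 246 (7.75%) and 455 (10.1%) of all genes. Between WT and the mean of the 2 variants limma called 0 members and 0% of all genes for both ratios. Here 0 members had an unadjusted p under 0.05, beside 86 genes (2.71%) for the NMD and 139 (3.08%) for the retained_intron ratio. Median standard errors over the members tested were 0.28 for the NMD ratio and 0.24 for the retained_intron ratio on the log2 scale. Moderate changes of a ratio could thus not be detected reliably here. In simulated data 0% of 2-fold and 39.5% of 4-fold changes of the NMD ratio were recovered, against 18% and 70% for the retained_intron ratio.

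For TRA2A, the called member with the largest retained_intron share, this share was 18.4%, 11.9% and 13.2% in GFP, 32.3%, 14.1% and 16.0% in WT, 32.8%, 16.9% and 16.1% in ΔGS and 29.7%, 11.7% and 21.7% in ΔADAM. In experiment 1 the 3 TYRO3 libraries stood well above GFP, and in experiment 3 all 3 were above it too. In experiment 2 the WT and ΔGS libraries were above GFP and the ΔADAM library was slightly below. The log2 ratio differed by 0.65 (SE 0.24, adjusted p = 0.48). TRA2B, its close relative, had retained_intron shares of 36.8%, 37.6% and 34.0% in GFP and 31.1% to 47.8% with TYRO3, a difference of the log2 ratio of 0.62 (SE 0.26, adjusted p = 0.483). Its GFP library was lowest in experiments 1 and 2, and in experiment 3 only the ΔGS library (31.1%) was lower.

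The NMD share of TRA2B was 30.6%, 34.6% and 39.6% in GFP, 37.2%, 38.2% and 41.1% in WT, 37.7%, 34.3% and 40.2% in ΔGS and 38.8%, 36.2% and 36.8% in ΔADAM. All of it came from TRA2B-206, the transcript with the stop in exon 2 shown above. Its log2 ratio differed by 0.58 (SE 0.28, adjusted p = 0.637), and the level of TRA2B-206 itself was 69.4, 80.5 and 84.6 CPM in GFP and 69.5 to 91.1 CPM with TYRO3, a log2 fold change of −0.01 (SE 0.086). The protein_coding transcript TRA2B-203 had 27.7, 17.2 and 12.9 CPM in GFP and 5.67 to 13.6 CPM with TYRO3 (log2 fold change −1.05, SE 0.36, adjusted p = 0.448). TRA2B-201, also protein_coding, had 39.3, 34.1 and 29.4 CPM in GFP and 17.3 to 38.7 CPM with TYRO3 (adjusted p = 0.56).

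**Figure D3:**
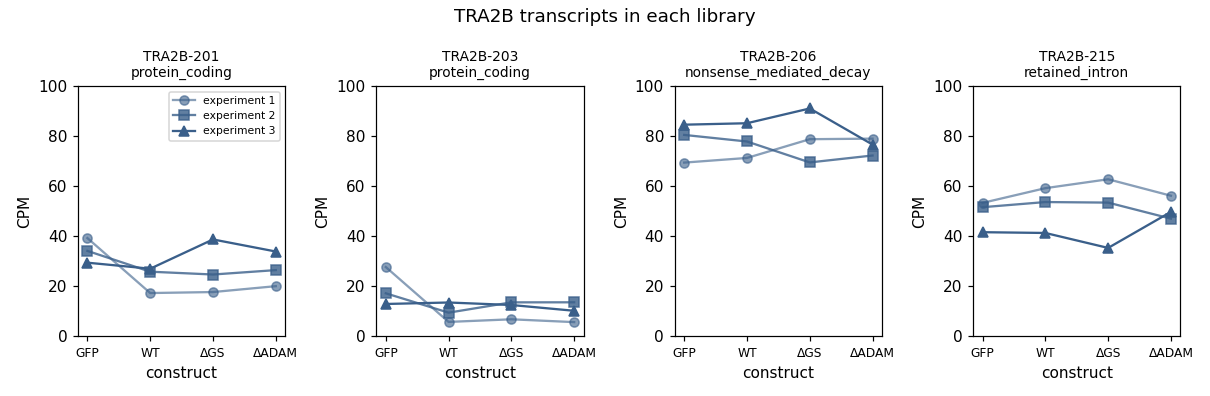
CPM (y axis, from 0) of 4 transcripts of TRA2B in each library by construct (x axis), with 1 line per experiment. The protein_coding transcripts TRA2B-201 and TRA2B-203 are below GFP in all TYRO3 libraries of experiments 1 and 2 but not of experiment 3, and TRA2B-206 and TRA2B-215 cross GFP in both directions.

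Taken across experiments, the NMD shares of the other 5 genes whose exons are shown overlapped between GFP and the TYRO3 groups. SRSF6, an activator of exon inclusion with a single NMD transcript (SRSF6-202), had 42.95%, 46.4% and 45.2% in GFP and 44.6% to 51.9% with TYRO3 (log2 ratio difference 0.20, SE 0.20, adjusted p = 0.778). Within experiments its GFP library was lowest in experiments 1 and 2, and in experiment 3 only the ΔGS library (44.6%) was lower. SRSF7, which also acts in mRNA export, had 40.5%, 29.8% and 21.6% in GFP and 29.1% to 47.5% with TYRO3 (0.37, SE 0.27, adjusted p = 0.699). Its GFP library was lowest in experiments 2 and 3, and in experiment 1 the ΔGS (38.8%) and ΔADAM (38.1%) libraries were lower. SRSF3 had 21.1%, 9.08% and 7.70% in GFP and 6.401% to 13.1% with TYRO3 (−0.29, SE 0.33, adjusted p = 0.799), where the high value is that of the GFP library with the lowest depth. In experiments 2 and 3 the TYRO3 libraries lay on both sides of GFP for SRSF3. The share of SRSF7 rested mostly on SRSF7-208, with a mean of 958.7 counts a library against 180.9 for SRSF7-204, and the stop of SRSF7-208 lies in an exon that overlaps exons of protein_coding transcripts.

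HNRNPLL, a relative of HNRNPL, had NMD shares of 13.6%, 17.95% and 17.0% in GFP and 11.4% to 20.35% with TYRO3 (0.09, SE 0.28, adjusted p = 0.927), all on HNRNPLL-201. HNRNPL had 1.24%, 1.31% and 2.73% in GFP and 0.793% to 3.73% with TYRO3 (0.29, SE 0.50, adjusted p = 0.85), all on HNRNPL-202. For both genes the direction against the GFP library of the same experiment changed between experiments.

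HNRNPDL, called lower in ΔADAM, had NMD shares of 2.83%, 2.61% and 3.11% in GFP, 9.92%, 3.38% and 4.15% in WT, 5.66%, 2.94% and 8.63% in ΔGS and 7.62%, 2.82% and 9.47% in ΔADAM. Experiments 1 and 3 had higher values with TYRO3 and experiment 2 hardly did. The difference of the log2 ratio was 0.98 (SE 0.39, adjusted p = 0.632). It came in part from HNRNPDL-202, listed at 0 in the GFP libraries of experiments 1 and 2 and at 6.25 CPM in that of experiment 3, and at 0.894 to 21.4 CPM with TYRO3.

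For SRSF2, PTBP1 and HNRNPH1 the groups overlapped across experiments as well. SRSF2 had retained_intron shares of 15.6% ± 5.85 (SD, n = 3) in GFP, 13.6% ± 2.82 in WT, 17.5% ± 4.74 in ΔGS and 16.7% ± 5.54 in ΔADAM. PTBP1, lower at the gene level, had 4.92% ± 1.74, 5.27% ± 1.10, 5.19% ± 3.16 and 5.19% ± 1.51. HNRNPH1 had 50.2% ± 12.3, 48.4% ± 11.4, 46.3% ± 20.3 and 45.7% ± 12.8. The large SD of HNRNPH1 within every group went with a difference between experiments.

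The classes did differ between the experiments, a comparison that was added after seeing the data. The paper had treated experiment 1 as a batch apart from experiments 2 and 3 and corrected its values for it. The summed retained_intron share of the members was 9.23% to 10.4% in the 4 libraries of experiment 1, 6.80% to 7.92% in experiment 2 and 4.997% to 6.33% in experiment 3, with no overlap. Over all genes the ranges were 4.28% to 4.89%, 3.70% to 4.01% and 3.14% to 3.81%. The ratio of retained_intron to protein_coding counts differed between the experiments for 17 of the 24 members tested by limma, beside 31.6% of 4512 genes. All 17 were lower in experiment 3 than in experiment 1, by 0.42 to 1.84 on the log2 scale, and 16 were lower in experiment 2, with SRSF5 as the exception. From experiment 1 to 3 the median change of the log2 ratio was −1.24 over the 24 members and −0.83 over all 4512 genes. A fall was thus not particular to the members. The share of all genes is not matched for level.

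HNRNPH1, which binds runs of guanine and regulates exons, had the largest shift from experiment 1 to 3 among the 17 called members. Its retained_intron share was 60.3%, 59.9%, 62.7% and 59.0% in the GFP, WT, ΔGS and ΔADAM libraries of experiment 1, 53.7%, 48.1%, 52.6% and 44.5% in experiment 2, and 36.5%, 37.1%, 23.6% and 33.6% in experiment 3. The log2 ratio was lower than in experiment 1 by 0.72 in experiment 2 and by 1.84 in experiment 3 (adjusted p = 0.0158). SRSF10, an SR protein that can repress splicing and was named after its values were seen, had shares of 22.8% to 27.7%, 14.2% to 16.1% and 8.33% to 12.9% in experiments 1 to 3 (adjusted p = 0.0158). SRSF5 had 18.7% to 24.35% in experiment 1, 29.7% to 39.0% in experiment 2 and 13.85% to 21.3% in experiment 3 (adjusted p = 0.0168). SRSF3, with shares of 31.3% to 43.6% over all libraries, was not called (adjusted p = 0.737).

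**Figure D4:**
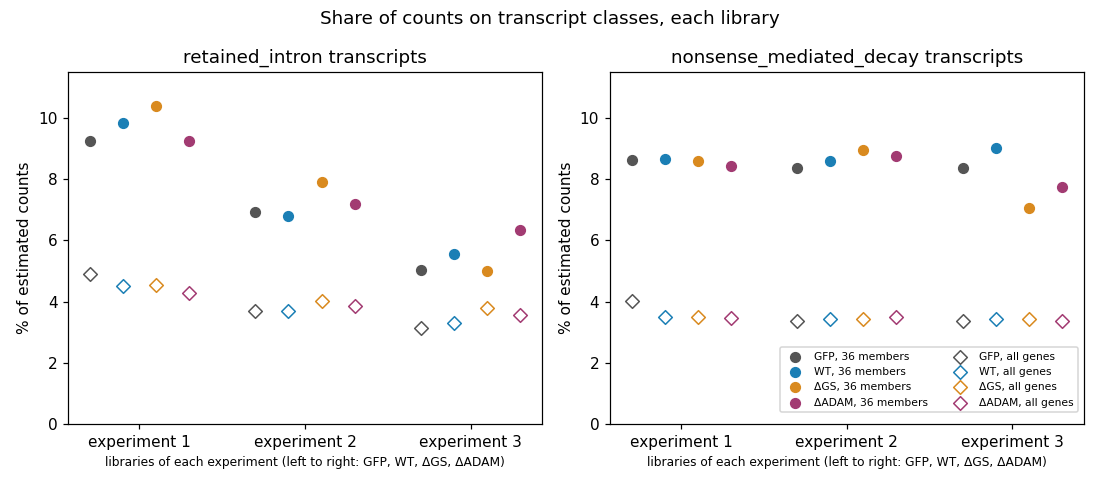
Share of counts (y axis, % of estimated counts) on retained_intron (left) and nonsense_mediated_decay transcripts (right) in each library, grouped by experiment (x axis), for the 36 members summed (filled circles) and all genes summed (open diamonds). The retained_intron share of the members steps down from 9.23% to 10.4% in experiment 1 to 4.997% to 6.33% in experiment 3, and the NMD share stays between 7.06% and 9.004%.

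The NMD ratio gave 0 of 23 members and 0% of 3176 genes between experiments in limma, where 501 genes had an unadjusted p under 0.05. For the retained_intron ratio, leaving out the GFP library of experiment 1 left 14 of 24 members called. Without the ΔGS library of experiment 1 no gene was called (0 members, smallest adjusted p of a member 0.0544), although 18 of the 24 members had an unadjusted p under 0.05, and without the WT library of experiment 1 there were 10. The share called of all genes moved with it, and lay at 10.1% without that WT library. The levels of TYRO3 in the WT, ΔGS and ΔADAM libraries were also highest in experiment 1 (3060 to 3691 CPM), and the GFP library of that experiment had 52.9 CPM of TYRO3 and a summed retained_intron share of the members of 9.23%. The part of the TYRO3 level in this result was not tested. What differed in handling between the experiments is not given in the sources used here.

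**Figure D5:**
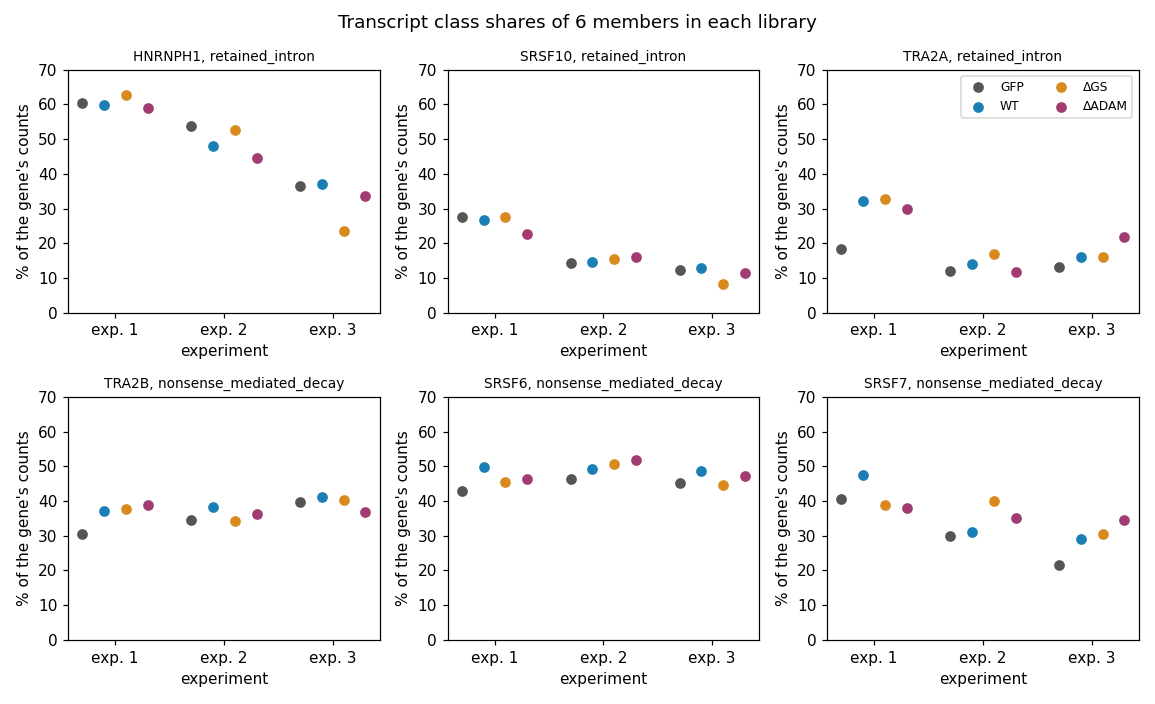
Share of the counts of 6 members (y axis, %) on retained_intron transcripts (upper row: HNRNPH1, SRSF10, TRA2A) and on nonsense_mediated_decay transcripts (lower row: TRA2B, SRSF6, SRSF7) in each library, by experiment (x axis) and construct (colour). HNRNPH1 and SRSF10 separate by experiment and not by construct, and the NMD shares of TRA2B (30.6% to 41.1%) and SRSF6 (42.95% to 51.9%) overlap between all experiments. The NMD share of SRSF7 does not overlap between experiment 1 (38.1% to 47.5%) and experiment 3 (21.6% to 34.5%). Its ratio was not called between experiments by limma (adjusted p = 0.312).

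Other genes of the splicing pathway were read from 4 lists. The kinases and carriers of SR proteins, such as SRPK1, CLK1 and TNPO3, which phosphorylate SR proteins or bring them into the nucleus, had 0 of 10 members called in any comparison with GFP, with median log2 fold changes of −0.02 in WT, −0.03 in ΔGS and −0.04 in ΔADAM. The core spliceosome had 0 of 30 called (medians −0.05, 0.00 and −0.05), and the NMD factors 0 of 10 (medians −0.03, −0.05 and 0.01). Among 27 tested of 30 other splicing regulators, 1 was called in WT, 2 in ΔGS and 3 in ΔADAM, all lower. Of all genes, 1.4%, 4.19% and 5.14% were called lower. The median log2 fold changes of the 27 were −0.06, −0.12 and −0.07. No alternative setting was run for the 4 lists.

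The called regulators were CELF2, KHSRP and KHDRBS1. CELF2, a splicing regulator that binds GU-rich RNA, fell by 1.03 on the log2 scale in WT (SE 0.24, adjusted p = 0.0459), by 1.31 in ΔGS (SE 0.24, adjusted p = 0.0138) and by 1.17 in ΔADAM (SE 0.24, adjusted p = 0.0176). KHSRP, a KH-domain protein of splicing and mRNA decay, fell by 0.25 in ΔGS (adjusted p = 0.0404) and by 0.25 in ΔADAM (adjusted p = 0.0381). KHDRBS1, the RNA-binding protein Sam68, fell by 0.31 in ΔADAM (adjusted p = 0.0433).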

How the data were processed

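Polyadenylated RNA of 12 libraries (4 groups in 3 experiments) had been sequenced as stranded paired-end reads. Per the submitters' processing notes, reads were checked with FastQC 0.11.9, trimmed with Trimmomatic 0.33 (and PRINSEQ, per the study's methods) and quantified against GRCh38 transcripts with kallisto 0.46.0. The authors' deposited values are kallisto's estimated counts and TPM per transcript, without the batch correction and normalization that the study applied later. Whether strand was used in counting is not given in the sources used here, so that reads of overlapping antisense genes cannot be told apart.

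Identifiers without version were matched to GENCODE 29: 18999 of 188753 transcripts were not matched, and 97.4% to 97.5% of the counts of a library were. Estimated counts were summed per gene, rounded and tested with edgeR 4.0.16 in R 4.3.3 (quasi-likelihood, TMM, filterByExpr at min.count 10 and min.total.count 15), with terms for the 4 groups and the 3 experiments. The sums per gene gave CPM with TMM factors. Standard errors of edgeR results were derived from the log2 fold change and the F statistic of the test, and are approximate. Ratios of a class to protein_coding were tested on log2 with a pseudocount of 0.5 in limma 3.58.1, for genes with at least 50 counts over both classes in every library and a class mean of at least 5. Calls had a Benjamini-Hochberg adjusted p of at most 0.05 over all features of a comparison, and a fold over 1.5 is given beside. The procedures were tested on simulated data with 200 changed features a run. For ΔADAM against GFP the gene test recovered 40.5% of 1.5-fold and 72.5% of 2-fold changes, with 9 and 17 false calls. The NMD ratio test recovered 0% at 2-fold and 39.5% at 4-fold, and the retained_intron ratio test 18% and 70%.

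The experiment number pairs the samples: over 9949 genes, deviations from the group means correlated at 0.27 to 0.82 for the 18 pairs of libraries of the same experiment and at −0.65 to 0.04 for different experiments. Nothing says that experiments were separate cell lines or clones, so p-values measure the spread between these experiments. No 2 libraries of a group agreed within sampling noise.

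The members and gene lists were chosen with earlier results of these data known. Genes named with every library were TYRO3 and the members called for WT, ΔGS or ΔADAM against GFP. Shares were given for SRSF2, SRSF3, SRSF6, SRSF7, TRA2A, TRA2B, HNRNPDL, HNRNPH1 and PTBP1, and levels for the 6 member transcripts of smallest p. Other members were named after their values were seen. Alternatives were DESeq2 1.42.0, RLE normalization, other filters, limma on log2(TPM + 1), other pseudocounts, the terms for experiment and each library left out. Figures were made with matplotlib.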

Additional observations from a re-analysis of the deposited data

How the results depend on the processing

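Of 360 alternative values for members called against GFP, 0 changed sign, 187 stayed past the threshold and 173 did not. In the order WT, ΔGS, ΔADAM and the groups together (1, 2, 6 and 9 members called), the counts were 5, 4, 8 and 10 with DESeq2, 2, 2, 6 and 8 with at least 10 counts in every library, 3, 1, 4 and 6 without a filter, 0, 1, 1 and 6 with limma on log2(TPM + 1), 0, 0, 1 and 4 with a batch term for experiment 1 in place of the replicate block, and 0, 0, 0 and 0 without a replicate block, in experiments 2 and 3 alone, and with a fold over 1.5 required. The lowest and highest counts with 1 library left out were 0 and 5 in WT, 0 and 4 in ΔGS, 0 and 11 in ΔADAM and 1 and 12 for the groups together. For transcripts, 16 were called by DESeq2 and 2 with at least 10 counts in every library, against 0. For the retained_intron ratio between experiments, leaving out 1 library gave 0 to 16 members against 17. The cause of these changes was not tested. WT against the variants, ΔGS against ΔADAM, both ratios between constructs and the NMD ratio between experiments gave 0 members under every alternative run. The NMD ratio, the transcript split and the low depth of the GFP library of experiment 1 limit what could be detected.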
